A study of Mus musculus with 4 samples.

Results

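Ifitm1, Ifitm2, Ifitm3 and Ifitm6 encode interferon-induced transmembrane (IFITM) proteins, and their levels are described here in follicular helper T (Tfh) cells of wild-type (WT) and Apoe-/- mice. The 4 genes were taken by symbol from a table of 23997 genes. They were selected on their FPKM in these same libraries, since all 4 were known to be higher in Apoe-/- cells, so their differences between the genotypes are given as a description, without a test.

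The study measured RNA by sequencing in 2 WT and 2 Apoe-/- libraries from lymph nodes and spleens of C57BL/6 mice aged 13 weeks. Apoe-/- mice lack apolipoprotein E and are used as a model of atherosclerosis. The labels give no diet or treatment and do not say how the Tfh cells were sorted or whether a library is 1 animal or a pool. The spread between replicates may therefore be technical, and p-values measure only the spread between these libraries. Apoe itself, which checks the labels, was at 145 and 128 FPKM in WT (sequenced fragments per gene, divided by transcript length in kilobases and by library size) and, far lower, at 5.09 and 5.21 FPKM in Apoe-/-.

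IFITM proteins are small membrane proteins that hinder the fusion of enveloped viruses with the cell. IFITM3 acts mainly in endosomes, whereas IFITM1 is found mostly at the cell surface. Type I interferon switches the genes on through a complex of transcription factors that binds the interferon-stimulated response element (ISRE). Interferon gamma acts through GAS elements. Leukocytes of many kinds carry IFITM proteins: IFITM3 is known from tissue-resident memory T cells, and Ifitm6 mainly from macrophages.

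The 4 genes lie together near the end of chromosome 7 (GRCm38), within 62.1 kb. From RefSeq positions, Ifitm2 is at 140954837 to 140959686 on the minus strand and Ifitm1 at 140967429 to 140969827 on the plus strand. Ifitm3 is at 141009590 to 141010744 and Ifitm6 at 141015812 to 141016892, both on the minus strand. In the first GENCODE model of each, all 4 have 2 exons and coding sequences of 318 bases (Ifitm1), 432 bases (Ifitm2), 411 bases (Ifitm3) and 312 bases (Ifitm6). Among the 4, Ifitm1, Ifitm2 and Ifitm3 are the closest relatives, with coding identities of 80.9% to 82.1% over aligned bases. Ifitm6 shares 69.4% to 70.3% with each of the other 3.

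Promoter stretches of 100 bases are shown because the letters of interferon-responsive elements can be looked for in them. They are from RefSeq (GRCm38.p6), read 5′ to 3′ on each gene's strand. RefSeq's promoter table gives 1 start per member: 140968076 for Ifitm1, 140955961 for Ifitm2, 141010744 for Ifitm3 and 141016892 for Ifitm6. The first lies 647 bases and the second 3725 bases inside the gene span given above, which also covers longer transcripts whose starts were not searched. Each stretch ends just before the most upstream GENCODE start within 100 bases of that start. Capitals mark matches to the ISRE core (GAAA, any 2 bases, GAAA) or to the TATA box TATAAA, searched on both strands.
Ifitm1 (chr7:140967928-140968027, plus strand): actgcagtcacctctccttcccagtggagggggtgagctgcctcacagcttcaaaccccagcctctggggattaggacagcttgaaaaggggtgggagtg
Ifitm2 (chr7:140955988-140956087, minus strand): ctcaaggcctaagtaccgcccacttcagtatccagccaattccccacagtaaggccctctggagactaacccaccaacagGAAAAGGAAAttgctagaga
Ifitm3 (chr7:141010771-141010870, minus strand): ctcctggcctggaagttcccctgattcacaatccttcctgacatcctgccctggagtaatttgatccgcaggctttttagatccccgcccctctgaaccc
Ifitm6 (chr7:141016909-141017008, minus strand): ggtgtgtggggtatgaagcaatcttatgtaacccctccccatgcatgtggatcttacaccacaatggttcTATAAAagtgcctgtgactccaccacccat

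Ifitm2 carried 1 ISRE core match, starting 46 bases before that start, and a TATA box match on the opposite strand 175 bases before it. Ifitm3 carried 2, both just inside the RefSeq transcript and starting at bases 3 and 20. The 30 bases that hold them are shown with all matches in capitals, including the GAS core TTCNNNGAA that overlaps the second.
Ifitm3 first 30 bases (chr7:141010715-141010744, minus strand): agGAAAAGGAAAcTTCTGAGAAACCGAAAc
The letters GAAAAGGAAA thus occur in both Ifitm2 and Ifitm3. Ifitm6 had a TATA box match 46 bases before its start and a GAS core match beginning 10 bases before it, outside the stretch shown. Ifitm1 had no match to these 3 motifs in the 300-base window around 140968076, from 250 bases before it to 50 after, which says only that these letters are not in that window. Of all 32851 promoter windows in the table, 3.44% held the ISRE core, 8.3% the GAS core and 13.6% the TATA box.

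All 4 IFITM genes had higher FPKM in both Apoe-/- libraries than in either WT library. Ifitm3 was the most abundant member and Ifitm1 the least in each of the 4 libraries, with Ifitm2 and Ifitm6 between them. FPKM is scaled to transcript length. Reads of related genes can still be hard to assign, as described below, so the order of the members is less certain. The sum of the 4 was 27.6 and 29.5 FPKM in WT and 74.1 and 84.2 FPKM in Apoe-/-, a ratio of means of 2.77. In each gene, differences below are of log2(FPKM + 1), which understates the change of low genes, and folds are ratios of mean FPKM.

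**Figure D1:**
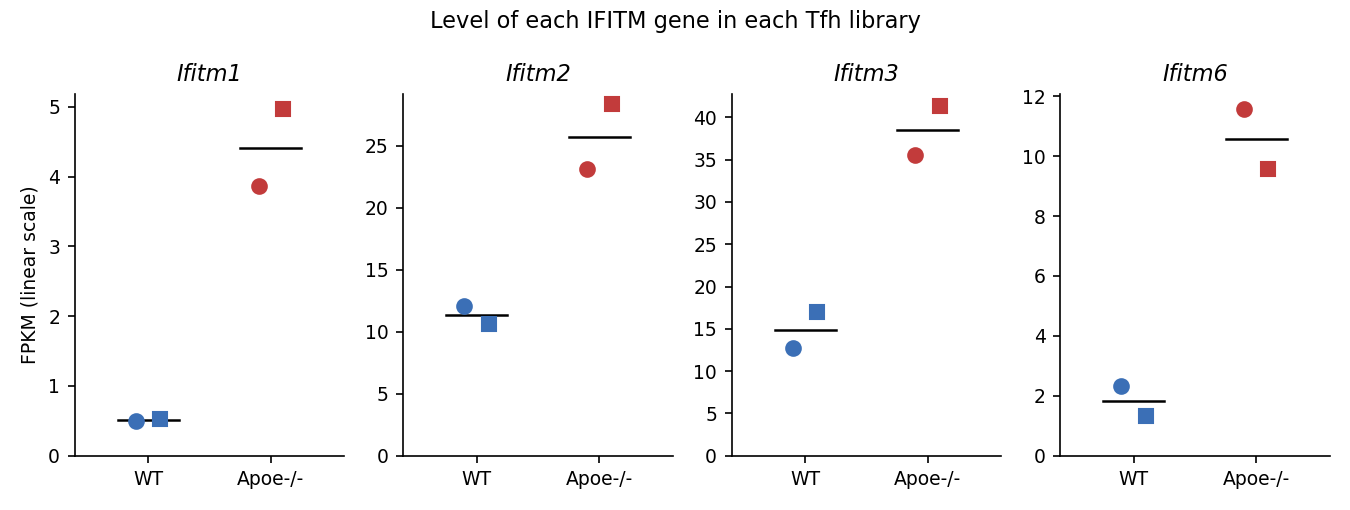
FPKM (linear axis from 0) of Ifitm1, Ifitm2, Ifitm3 and Ifitm6 in the WT (blue) and Apoe-/- (red) libraries. Circles are replicate 1, squares replicate 2 and lines the group means; in each panel both Apoe-/- libraries lie above both WT libraries, for Ifitm1 at 3.86 and 4.97 against 0.496 and 0.529.

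Ifitm3, the member best known for blocking virus entry from endosomes, was at 12.8 and 17.0 FPKM in WT and at 35.6 and 41.4 FPKM in Apoe-/- cells. The lowest Apoe-/- library was thus above the highest WT library. Means were 14.9 ± 3.0 and 38.5 ± 4.10 FPKM (SD, n = 2 each), 2.59-fold apart. The log2 difference was 1.32 ± 0.17 (SE), with 1.41 between the libraries numbered 1 and 1.24 between those numbered 2. Among the 11187 genes that averaged at least 1 FPKM, Ifitm3 stood at percentiles 44.8 and 52.7 of level in WT and at 76.6 and 79.2 in Apoe-/-.

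Ifitm2, a close relative of Ifitm3 that also restricts viruses in endosomes, was at 12.1 and 10.6 FPKM in WT and at 23.1 and 28.3 FPKM in Apoe-/- cells. Again the groups did not overlap. Means were 11.3 ± 1.02 and 25.7 ± 3.70 FPKM (SD, n = 2), and the log2 difference was 1.11 ± 0.14 (SE), the smallest of the 4. It was 0.88 within number 1 and 1.33 within number 2, so the size of the gap differed more between replicate numbers here than for Ifitm3. The ratio of Ifitm3 to Ifitm2 was 1.06 in WT replicate 1 and 1.46 to 1.6 in the other 3 libraries. In WT, the mean levels of Ifitm3 and Ifitm2 differed by little more than the spread of Ifitm3 between replicates.

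Ifitm6 was at 2.32 and 1.34 FPKM in WT and at 11.6 and 9.57 FPKM in Apoe-/- cells, with no overlap. Its means of 1.83 ± 0.697 and 10.6 ± 1.42 FPKM (SD, n = 2) were 5.78-fold apart, and its log2 difference of 2.05 ± 0.21 (SE) was the 15th highest of the 11187. The gene was picked for being higher, so this rank is not read further. The difference was 1.92 within number 1 and 2.18 within number 2. Its share of the family's FPKM was 8.41% and 4.54% in WT and 15.6% and 11.4% in Apoe-/-.

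Ifitm1, the surface member, was at 0.496 and 0.529 FPKM in WT and at 3.86 and 4.97 FPKM in Apoe-/- cells. The low WT values lay close together, and the groups did not overlap. Means were 0.513 ± 0.0233 and 4.42 ± 0.781 FPKM (SD, n = 2), an 8.61-fold ratio, the largest of the 4 genes. On the log2 scale the difference was 1.83 ± 0.15 (SE), with 1.70 within number 1 and 1.96 within number 2. Ifitm1 reached the mean FPKM of 1 needed for the fit only through its Apoe-/- libraries, so it could enter the fit only by differing. It made up 1.8% and 1.79% of the family's FPKM in WT, against 5.21% and 5.90% in Apoe-/-.

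Across tested genes, limma with Benjamini-Hochberg adjustment called 0.948% higher and 0.885% lower in Apoe-/- cells at an adjusted p under 0.05. The 4 members were all among those higher, which follows from how they were picked and is not read further. Both Apoe-/- libraries lay above both WT libraries in 27.5% of tested genes and below them in 22.9%. With no FPKM filter only Ifitm1 was called (0.211% of 16584 genes were called higher). Without WT replicate 2, where 0.483% of tested genes were called higher, 3 of the 4 were called and Ifitm2 was not. These counts come from the values that picked the genes and are not read either.

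**Figure D2:**
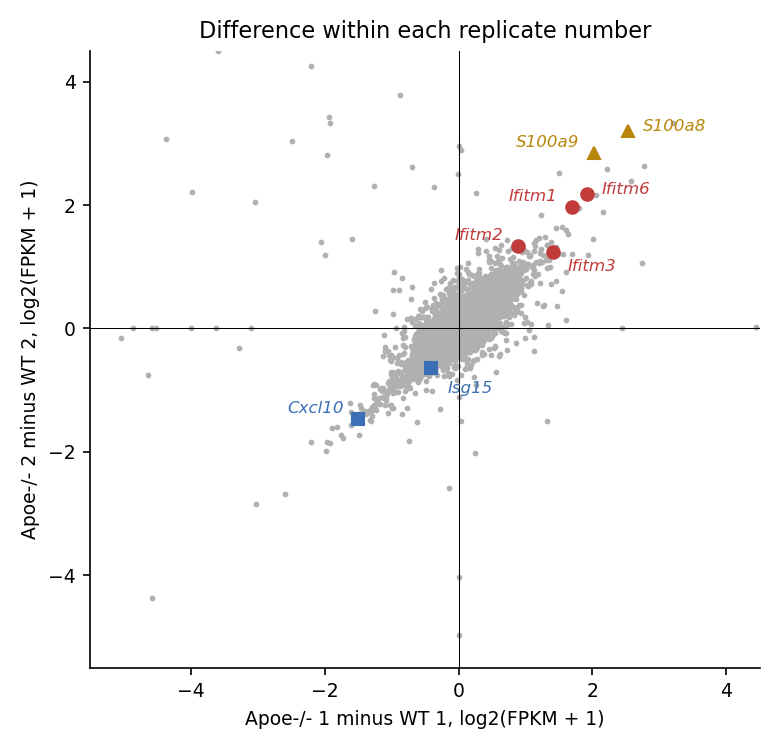
Apoe-/- minus WT in log2(FPKM + 1) for each tested gene, for the libraries numbered 1 (x axis) and 2 (y axis), with grey points for the 11187 tested genes, of which 14 lie outside the axes. The 4 IFITM genes (red) have positive differences on both axes, from 0.88 to 2.18, beside the neutrophil genes S100a8 and S100a9 (gold) and the interferon targets Isg15 and Cxcl10 (blue).

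Reads of such related genes can be hard to assign. Of the 50-base words in the Ifitm3 transcript, 5.56% also occur in another IFITM gene. A share of 10% occur in any GENCODE gene that does not overlap it, the other IFITM genes included. For Ifitm2 these shares were 3.3% and 22.8%, and 36.1% lie in a gene model that overlaps it. For Ifitm1 they were 2.18% and 7.71%, and for Ifitm6 both were 0. The read length and the handling of reads with several matches are not given here. Besides each other, Ifitm1, Ifitm2 and Ifitm3 shared words with gene models such as Gm7676 or Gm11951. Their levels, and the split between them, are therefore less certain than the level of Ifitm6, which had no shared words.

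The remaining IFITM genes were scarcely detected. Ifitm5, a gene of bone-forming cells that lies beside Ifitm2, was at 0.166 and 0.181 FPKM in WT and was listed at 0 and at 0.0792 FPKM in Apoe-/-. Ifitm7, on chromosome 16, was listed at 0 in all libraries. Ifitm10, which lies 1.31 Mb beyond Ifitm6, was at 0.445 and 0.216 FPKM in WT and at 0.934 and 1.13 FPKM in Apoe-/- cells. Their mean FPKM was under 1, so none of the 3 was tested. Among 7 genes with a related CD225 domain, 2 were tested and neither was called, although at an unadjusted p under 0.05 both were higher. They were Prrt2, a synaptic protein gene (30.6 and 44.3 FPKM, log2 difference 0.52 ± 0.14 SE, adjusted p = 0.135), and Prrt1 (6.83 and 11.2 FPKM, adjusted p = 0.176).

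Genes around the cluster were not called. Of 58 listed genes within 0.5 Mb of it, 29 were tested and 0 passed in either direction, against 1.83% of all tested genes. At that share, 0 of 29 says little about the region. The median difference of the 29 was 0.18, against 0.00 over all tested genes, so most were positive. Their range was -0.64 to 0.65. Among the 29, both Apoe-/- libraries lay above both WT libraries in Ric8, B4galnt4, Sigirr, Rnh1, Hras, Lrrc56, 1600016N20Rik and Rassf7. The same held for Irf7, Deaf1, Slc25a22, Rplp2, Pnpla2, Cd151 and Tspan4. Only in Psmd13, Tmem80 and Chid1 did both Apoe-/- libraries lie below both WT libraries. Over all tested genes, 27.5% lay above and 22.9% below in this way. Athl1, the nearest tested gene before the cluster, had 17.8 and 15.4 FPKM in WT and 18.6 and 17.0 FPKM in Apoe-/- (log2 difference 0.09 ± 0.12 SE, adjusted p = 0.717). On the other side, B4galnt4, a glycosyltransferase gene, was at 22.9 and 18.6 FPKM in WT and 34.9 and 31.1 FPKM in Apoe-/- (0.65 ± 0.14 SE, adjusted p = 0.0928). B4galnt4 passed in 2 other settings, with the replicate number as a block and without Apoe-/- replicate 2. The block fit called 1908 genes higher over all tested genes.

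Apoe is on the same chromosome, at 19696244 to 19701310, and ends 121 Mb before the cluster. Within 10 Mb of Apoe, 14 of 179 other tested genes were called (7.82%), and elsewhere on chromosome 7, where the IFITM genes lie, 17 of 692 (2.46%). Without the 4 members the latter were 13 of 688 (1.89%).

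**Figure D3:**
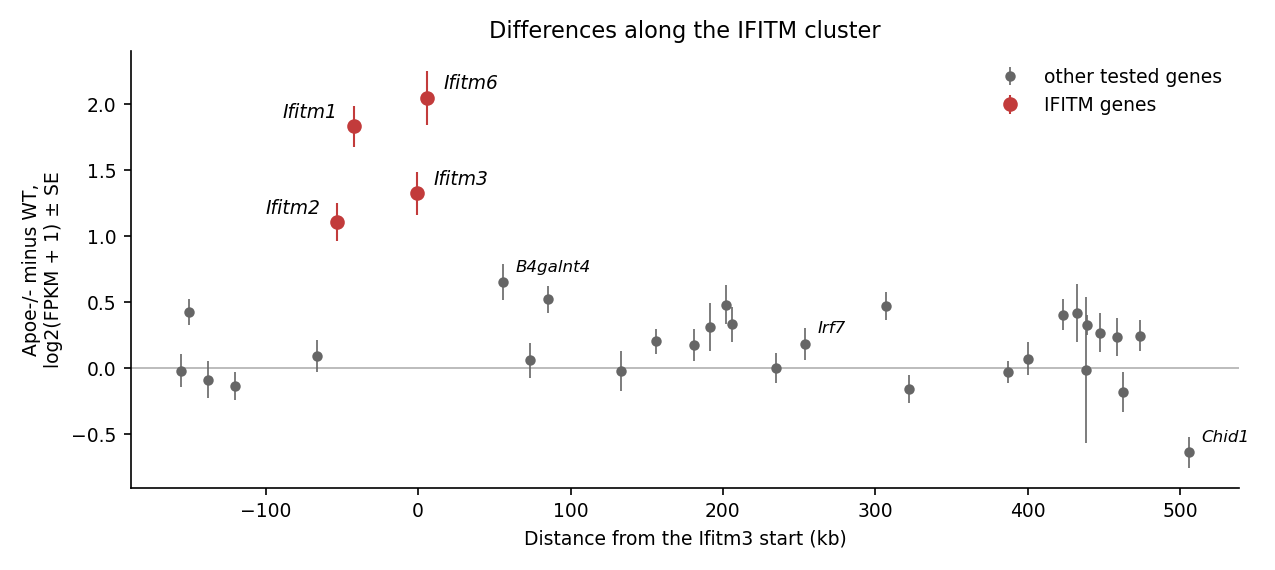
Apoe-/- minus WT in log2(FPKM + 1), with its SE, for tested genes within 0.5 Mb of the IFITM cluster, plotted by the distance of the gene's midpoint from the Ifitm3 start in kb. The 4 IFITM genes (red) lie between 1.11 and 2.05, and the other 29 genes (grey) between -0.64 and 0.65.

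Among other interferon-induced genes, Ifi204 had the largest positive difference of the tested type I targets. It was at 3.12 and 3.19 FPKM in WT and 5.30 and 7.64 FPKM in Apoe-/- (log2 difference 0.83 ± 0.18 SE, limma adjusted p = 0.0965). Of 41 tested type I interferon targets, 0 passed in either direction, with a median difference of 0.10 against 0.00 over all tested genes. At an unadjusted limma p under 0.05, 9 were higher and 1 lower, where 11.6% of all tested genes were higher and 8.27% lower, the shares beside which the unadjusted counts of the other lists also stand. In 19 of the 41, both Apoe-/- libraries lay above both WT libraries, against 27.5% of all tested genes. Isg15, a ubiquitin-like modifier induced by type I interferon, was at 41.5 and 44.3 FPKM in WT and at 31.0 and 28.2 FPKM in Apoe-/- cells. Its Apoe-/- values were thus below its WT values (log2 difference -0.52 ± 0.11 SE, adjusted p = 0.0887). Ly6a, the Sca-1 surface protein gene, came closest to the threshold among the named targets. It was at 203 and 228 FPKM in WT and 327 and 325 FPKM in Apoe-/- (0.60 ± 0.09 SE, adjusted p = 0.0508). Ifi27l2a, the most abundant of the list, overlapped between groups (705 and 613 FPKM in WT, 950 and 560 FPKM in Apoe-/-), and Slfn2 had a difference of 0.24 (adjusted p = 0.25). Called type I targets numbered 1 without Apoe-/- replicate 1, 3 without Apoe-/- replicate 2 and 1 with quantile normalization.

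Of 23 tested interferon gamma targets, 1 fell and 0 rose, with a median of 0.08. At an unadjusted limma p under 0.05, 4 were higher and 3 lower (11.6% and 8.27% of all tested genes). The gene that fell was Cxcl10, a chemokine that draws CXCR3-bearing T cells. It was at 130.1 and 129 FPKM in WT and at 45.4 and 45.9 FPKM in Apoe-/- (log2 difference -1.48 ± 0.09 SE, adjusted p = 0.00802). Its direction was thus opposite to that of the IFITM genes. Psmb8, an immunoproteasome subunit, and Tap1, a peptide transporter, had differences of 0.19 and 0.33 (adjusted p = 0.38 and 0.197).

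**Figure D4:**
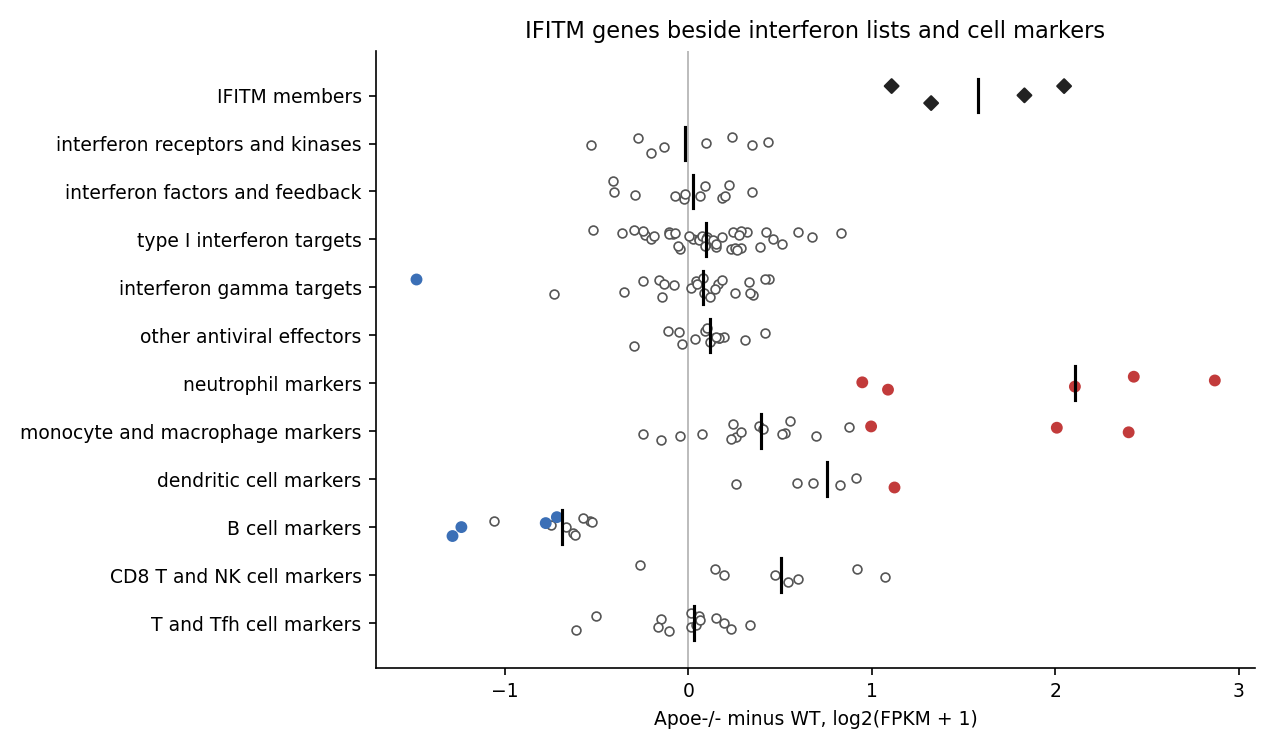
Apoe-/- minus WT in log2(FPKM + 1) for the tested genes of each list, with a vertical bar at the list's median; red and blue circles passed limma's adjusted threshold of 0.05 upward and downward, and open circles did not. Black diamonds are the 4 IFITM genes, chosen with this comparison known, at 1.11 to 2.05, while the 41 type I interferon targets have a median of 0.10.

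The pathway upstream of the IFITM genes was measured as well. Of 15 interferon genes, only Ifng averaged at least 1 FPKM, at 83.7 and 92.6 FPKM in WT and 127 and 138 FPKM in Apoe-/- (adjusted p = 0.0693). The type I interferon gene Ifnb1 was at 0.0715 and 0.360 FPKM in WT and listed at 0 in both Apoe-/- libraries. Of 8 tested receptor subunits and kinases, 0 passed by limma (2 higher and 1 lower at an unadjusted p under 0.05), with a median of -0.02. Ifnar1, a type I receptor subunit, was at 29.2 and 26.6 FPKM and Ifnar2, the other subunit, at 49.2 and 62.9 FPKM (means of WT and Apoe-/-, adjusted p = 0.555 and 0.155). Of 12 transcription factors and feedback genes, 0 passed (1 higher and 2 lower at an unadjusted p under 0.05), with a median of 0.02. Irf1 was at 174 ± 1.49 and 131 ± 2.71 FPKM (SD, n = 2, adjusted p = 0.0916). Irf7, the amplifier of type I interferon, lies 246 kb beyond Ifitm6 and was at 45.6 and 39.2 FPKM in WT and 50.8 and 45.6 FPKM in Apoe-/-, so that the groups nearly touched (adjusted p = 0.46). A missed threshold does not show that these genes were equal.

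Other antiviral effectors were also without a call: 0 of 15 tested genes passed, with 0 higher and 1 lower at an unadjusted limma p under 0.05 and a median of 0.12. Ly6e, which like the IFITM proteins acts on virus entry, was at 652 and 612 FPKM in WT and 674 and 625 FPKM in Apoe-/- (adjusted p = 0.834). Apobec3, a cytidine deaminase, had a difference of 0.12 and Serinc3, whose protein lowers the infectivity of virus particles, of 0.15.

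The ISRE core seen in Ifitm2 and Ifitm3 was also looked for in other promoters. Of 352 other tested genes that hold it, 7 were called higher (1.99%, against 0.869% of tested genes with a promoter entry) and 3 lower. Of all 8976 tested genes with a promoter entry, 78 were called higher and 79 lower. The median difference of the 352 was 0.02, against 0.00 over the 8976. The core was present in 15 of the 30 type I targets that had an entry (50%) and in 9 of 14 interferon gamma targets (64.3%). Of all tested genes with an entry, 3.94% held it.

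Of the partners and modifiers of IFITM proteins, 12 were tested, with a median difference of -0.04 and 0 called higher. Cr2, the gene of complement receptor 2 of B cells, fell from 9.30 and 12.1 FPKM to 3.19 and 4.39 FPKM (log2 difference -1.29 ± 0.19 SE, adjusted p = 0.0442). That call was lost without WT replicate 2, with no FPKM filter and with a mean of at least 5 FPKM (limma adjusted p over all settings 0.000256 to 0.102, log2 difference of Cr2 without that replicate -1.12). Cd81, a tetraspanin, had 51.4 and 46.1 FPKM in WT and 48.3 and 49.2 FPKM in Apoe-/- (adjusted p = 0.993). Zdhhc20, which attaches palmitate to IFITM3, was at 35 and 41.9 FPKM and Nedd4, which ubiquitinates it, at 4.02 and 2.63 FPKM (means, adjusted p = 0.595 and 0.131).

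Markers of several other cell types were present in these libraries, and some of them differed between the genotypes. The part of other cells' RNA in the IFITM differences was not tested. The T and Tfh cell markers had a summed level of 3013 to 3108 FPKM in WT and 2954 to 3041 FPKM in Apoe-/-, and 0 of 14 passed (2 higher and 2 lower at an unadjusted limma p under 0.05). Cd4 was at 368 and 365 FPKM in WT and 406 and 408 FPKM in Apoe-/-, and the Tfh receptor gene Cxcr5 at 176 and 162 FPKM and 223 and 204 FPKM. In the other direction, the inhibitory receptor gene Pdcd1 was at 283 and 260 FPKM in WT and 203 and 179 FPKM in Apoe-/- (adjusted p = 0.0887), and the costimulatory receptor gene Cd28 at 133 and 169 FPKM and 83.8 and 114 FPKM (adjusted p = 0.165). Of 12 B cell markers, 4 fell and 0 rose (0.885% and 0.948% of all tested genes). Their sum was 356 to 358 FPKM in WT and 211 to 220 FPKM in Apoe-/-. At an unadjusted limma p under 0.05, all 12 were lower, against 8.27% of all tested genes. Both Apoe-/- libraries lay below both WT libraries in all 12, against 22.9%. Fcer2a, the low-affinity IgE receptor gene, was the most firmly called of them, at 16.9 and 16.4 FPKM in WT and 6.53 and 6.44 FPKM in Apoe-/- (log2 difference -1.24 ± 0.11 SE, adjusted p = 0.0148). The B cell count was 2 without WT replicate 1, 1 without WT replicate 2 and 7 without Apoe-/- replicate 1. In bulk RNA, fewer cells of a type and less RNA per cell cannot be told apart.

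Neutrophil markers rose beside the IFITM genes. The summed level of 16 listed markers was 11.8 to 14.1 FPKM in WT and 61.0 to 77.9 FPKM in Apoe-/-. The largest parts of it in Apoe-/- were the calprotectin genes. S100a8 went from 2.77 and 2.29 FPKM to 20.8 and 29.4 FPKM (log2 difference 2.87 ± 0.19 SE, adjusted p = 0.00832) and S100a9 from 4.57 and 3.06 FPKM to 21.6 and 28.0 FPKM (adjusted p = 0.0142). The 5 tested markers rose, as did 0.948% of all tested genes. Retnlg passed the filter only through Apoe-/-, while the other 11 were too low to test. Camp and Elane, granule genes of neutrophils and their precursors, were listed at 0 in all libraries. The count was 3 without WT replicate 2. The ratio of Ifitm6 to S100a8 was 0.839 and 0.584 in WT and 0.556 and 0.326 in Apoe-/-. The part of neutrophil RNA in the IFITM differences was not tested.

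At an unadjusted limma p under 0.05, 10 of 18 tested monocyte and macrophage markers were higher and 0 lower (11.6% and 8.27% of all tested genes). The list's sum was 276 to 310 FPKM in WT and 374 to 408 FPKM in Apoe-/-. Its median difference was 0.40 (Cx3cr1, Vsig4 and Chil3 were tested only through Apoe-/-). At the adjusted threshold 3 rose and 0 fell (0.948% and 0.885% of all tested genes). They were Chil3, a chitinase-like protein (0.144 and 0.0469 FPKM in WT, 4.30 and 5.30 FPKM in Apoe-/-, adjusted p = 0.00802), Vsig4, a complement receptor (adjusted p = 0.0434), and Cd5l, a secreted macrophage protein (log2 difference 1.00 ± 0.11 SE, adjusted p = 0.0234). The general macrophage genes Csf1r and Cd68 were at 24.4 and 29.4 FPKM and at 26.1 and 25.1 FPKM (means, adjusted p = 0.249 and 0.88). The count was 5 without Apoe-/- replicate 2, 1 with no FPKM filter and 1 with a mean of at least 5 FPKM. Cd5l did not pass without WT replicate 1, and Vsig4 did not with a pseudocount of 5. Of 6 tested dendritic cell markers, 5 were higher and 0 lower at an unadjusted limma p under 0.05. The list median was 0.75, to which Zbtb46 and Clec10a came only through Apoe-/-. At the adjusted threshold Itgax rose (3.84 and 3.49 FPKM to 9.12 and 9.15 FPKM, adjusted p = 0.0198). That call was lost without WT replicate 2, while 5 markers passed without Apoe-/- replicate 1 and 3 without Apoe-/- replicate 2. CD8 T and NK cell markers had 0 of 8 passing (4 higher and 0 lower at an unadjusted limma p under 0.05, against 11.6% and 8.27% of all tested genes) and a median of 0.51, with 2 called without Apoe-/- replicate 1 and 1 without Apoe-/- replicate 2. Platelet markers summed to at most 2.51 FPKM and stroma and endothelium markers to at most 1.67 FPKM in any library. The part of myeloid or NK cell RNA in the IFITM differences was not tested.

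The genes whose pattern over the 4 libraries was closest to each member were found as the smallest Euclidean distance of log2(FPKM + 1) after each gene's mean was removed. With 4 libraries and a shared difference between genotypes, this is a description only. For Ifitm1 they were Ccl6, a chemokine of myeloid cells (1.73 and 1.6 FPKM in WT, 8.5 and 9.03 FPKM in Apoe-/-, distance 0.175), the Fc receptor gene Fcgr4 (0.272) and the cholesterol exporter gene Abca1 (0.283). For Ifitm6 they were Fbxo17 (distance 0.408), Ccl6 (0.424) and Irgc1 (0.503), and Ifitm1 came 7th. Ifitm2 was closest to Lpl, the gene of lipoprotein lipase (distance 0.0804), Rbm3os (0.138) and the cytokine gene Il1b (0.138). Ifitm3 was closest to Igj, the immunoglobulin J chain gene (8.81 and 11.6 FPKM in WT, 26.4 and 28.0 FPKM in Apoe-/-, distance 0.0967), Rfesd (0.173) and Sirpb1a (0.187). No IFITM gene was among the 3 nearest genes of another, and Ifitm2 and Ifitm3, the closest pair of members, were 0.451 apart.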

How the data were processed

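Levels are FPKM per gene symbol in each library, deposited by the authors. CASAVA 1.8.2 and TopHat2 2.0.13, along with Cuffdiff 2.2.0 and build mm10, are listed per the submitters' processing notes. Annotation and strand setting are not given here. Read depth is unknown; FPKM totals were 522371 to 551289 per library. In 2 rows a space stands in place of a tab, and these were split on it.

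A gene was tested if it averaged at least 1 FPKM over the 4 libraries (11187 genes), on the scale log2(FPKM + 1). Apoe-/- was compared with WT by limma 3.58.1 in R 4.3.3, two-sided, with eBayes moderation along a trend in mean level. P-values were adjusted by Benjamini-Hochberg across the tested genes, and 0.05 was the threshold. The procedure was tested on simulated data. Positions came from RefSeq by symbol (99.6% of tested genes) and gene models from GENCODE M21, both GRCm38, the assembly also called mm10. Protein sequences were not used here, so identities are between coding sequences. The TATA box was chosen after the promoters were seen.

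The members and gene lists were chosen with earlier results of these data known. The genes named are the IFITM genes, up to 4 called or the 3 most abundant genes of each list, a few fixed pathway genes, the nearest neighbours and the closest patterns. Cd81, Zdhhc20, Nedd4, Ifnb1, Csf1r, Cd68, Cxcr5, Pdcd1, Cd28, Camp and Elane were added for their roles. Ifi204 was added as the largest positive difference among the type I targets, and further neighbours of the cluster for their direction. Alternatives covered pseudocount, filter, scaling, variance model, replicate block and single libraries. Some list members are not reported here by name.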

Additional observations from a re-analysis of the deposited data

How the results depend on the processing

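The IFITM differences were positive in each alternative run for each member. The members were picked for being higher in Apoe-/- in these same libraries, so that sign follows from the choice and is not read as support. With a pseudocount of 0.1 the log2 differences of Ifitm1 and Ifitm6 were 2.87 and 2.51. With a pseudocount of 5 those of Ifitm1, Ifitm2 and Ifitm6 were 0.77, 0.91 and 1.19. Members called higher numbered 1 with no FPKM filter. Over all genes, 35 were called higher and 41 lower with no FPKM filter, and 51 higher with a mean FPKM of 5 or more. Leaving out WT replicate 1 gave 65 calls higher and 61 lower, and leaving out WT replicate 2 gave 54 and 67. Dropping Apoe-/- replicate 1 gave 257 and 164, and dropping Apoe-/- replicate 2 gave 317 and 301. The group left with 1 library takes its spread from the other group in these fits. Over these leave-outs, called type I interferon targets ranged from 0 to 3, neutrophil markers from 3 to 5 and B cell markers from 1 to 7. Type I targets numbered 1 with quantile normalization. Neutrophil markers numbered 3 with no FPKM filter and 3 with a mean FPKM of 5 or more, and B cell markers called lower numbered 1 with no FPKM filter. With the replicate number as a block, 1908 genes were called higher and 1776 lower, with 12 type I targets higher and 12 B cell markers lower. The labels do not pair the libraries: equal numbers are shared names only, although their deviations from the group means correlated at 0.214 over the 11187 genes. The cause of these shifts was not tested. The medians of the interferon gamma targets and of the T and Tfh cell markers turned negative without WT replicate 1 (-0.02 and -0.015), and that of the T and Tfh cell markers also when rescaled to one FPKM total and without Apoe-/- replicate 2 (-0.02 and -0.04). Unknown depth and 2 libraries per group limit every value.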

Other observations

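Near-identical globin gene copies were listed in a way that differed between single libraries. Hbb-b1 was at 24.3 and 31.8 FPKM in WT, at 0.0162 FPKM in Apoe-/- replicate 1 and at 18.4 FPKM in Apoe-/- replicate 2. Hbb-bs was at 0.00431 and 0.00331 FPKM in WT, at 20.8 FPKM in Apoe-/- replicate 1 and at 0.0168 FPKM in Apoe-/- replicate 2. Hba-a2 was under 1 FPKM in every library but Apoe-/- replicate 2, where it was at 2.60 FPKM beside 2.61 FPKM of Hba-a1.

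Among 8 markers of naive or resting T cells, Ccr7, the receptor that guides T cells into lymph nodes, fell from 66.7 and 58.8 FPKM in WT to 36.7 and 31.9 FPKM in Apoe-/- (log2 difference -0.85 ± 0.12 SE, adjusted p = 0.0442 by limma, lost in 6 settings: without WT replicate 1 or WT replicate 2, with no FPKM filter, a mean of at least 5 FPKM, quantile normalization or eBayes without a trend). Klf2, a transcription factor of resting T cells, was at 168 and 137 FPKM in WT and at 268 and 231 FPKM in Apoe-/- (adjusted p = 0.0809). Tcf7 was at 604 and 611 FPKM (means, adjusted p = 0.954).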
